A study of Drosophila melanogaster with 8 samples.

Results

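The comparison described here is a strain of Drosophila melanogaster that lacks part of a microRNA cluster, set against the w1118 strain. The knockout carries the genotype w1118 ; mir959-962-KO, and its control is w1118, so that both share the w1118 background named in the labels. Each strain was sampled at 4 h (ZT4, day) and at 16 h (ZT16, night) after lights on, following 3 days in 12 h of light and 12 h of dark, with 1 array for each strain and time. The 4 arrays belong to a series of 8. The other 4 come from yw ; tim-gal4, UAS-mir-cluster/CyO flies, in which the clock gene promoter of tim drives a transgene of the cluster, and from their control yw ; tim-gal4/CyO, and they enter only the fitted model and the comparisons of strains. Heads were taken from flies frozen on dry ice and total RNA was extracted. The labels do not give the sex or age of the flies, the number of heads in a sample, or whether the knockout was crossed repeatedly to w1118. A difference between the strains therefore covers the deletion and any other difference in their genomes, which cannot be told apart here.

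MicroRNAs are short RNAs that pair, mainly through the seed near their 5′ end, with target mRNAs and lower their stability or translation. Members of a cluster are cut from a common transcript and so tend to be made together. By the title of the study this cluster, miR-959 to miR-964, oscillates in fly heads and acts on feeding time and on other outputs of the circadian clock. Loss of a microRNA can raise its direct targets, and transcripts further downstream can go either way.

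Expression was read on Affymetrix Drosophila Genome 2.0 arrays as log2 intensities, where a step of 1 is a 2-fold difference. The lowest value was 2.32 on each array, which stands for a transcript not seen above background, so that a difference from such a value is not a quantitative fold. Of 18769 probe sets that are not controls, 7568 reached 4 on 2 or more of the 4 arrays and were kept. They include 6701 with 1 gene symbol, which stand for 6305 genes. A probe set is said to have moved when it differed at least 2-fold the same way in the ZT4 pair and in the ZT16 pair, a description of size with no test. The words rose, fell and called are kept for probe sets with an adjusted p under 0.05 in limma, fitted over the 8 arrays with strain and time as terms. Paired values are given with ZT4 before ZT16.

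The arrays carried the markers of heads. Of the genes on the array, 15 of 16 of phototransduction, 11 of 12 neuronal and 12 of 13 glial genes passed the filter. Markers of the body differed between the arrays. Of 19 genes of the male accessory gland, which makes seminal fluid, 18 were at 4 or above on the knockout ZT16 array, 1 on the knockout ZT4 array, and 0 on either w1118 array. Their median level was 8.48 in the knockout at ZT16 and 2.32 on the other 3 arrays. Of 20 genes on the testis list, 14 reached this level in the knockout at ZT16 and 1 on each of the other 3 arrays. That 1 was svp, which is not among the genes chosen as testis markers and is counted on all 4 arrays. It read 8.01 and 7.61 in the knockout, against 7.87 and 7.86 in w1118. Of 22 midgut protease and lysozyme genes, 11 reached this level in the knockout at ZT16, 1 in the knockout at ZT4 and 0 in w1118. Genes of the ovary and eggshell stayed at background on all 4 arrays (0 of 14). The median of 15 muscle genes was 7.14 and 8.63 in the knockout, against 7.82 and 7.96 in w1118. The tim-gal4 control ZT16 array carried the same body markers, with an accessory gland median of 7.17. For these reasons the ZT4 pair is given first throughout, and fewer cells of a type cannot be told apart from less RNA per cell in such whole-head samples.

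In the ZT4 pair, 116 of the kept probe sets (1.53%) were higher in the knockout by 2-fold or more and 82 (1.08%) were lower by as much, 198 in all (2.62%). In the ZT16 pair, 125 (1.65%) were higher and 168 (2.22%) lower, 293 in all (3.87%). The median difference over all kept probe sets was -0.02 at ZT4, with an SD over probe sets of 0.40, and -0.20 at ZT16, with an SD of 0.56. The ZT16 split turned with this shift: when each array was centred on its own median, 173 were higher and 110 lower, or 61.1% higher, against 42.7% without centring.

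A total of 73 probe sets (0.965%) were higher in the knockout at both times and 65 (0.859%) were lower at both times, together 138 (1.82%). The higher ones made up 62.9% of the ZT4 list and 58.4% of the ZT16 list, and the lower ones 79.3% and 38.7%. A further 6 probe sets moved at least 2-fold in opposite directions at the 2 times. Of the 138, 25 were at least 4-fold higher at both times and 18 at least 4-fold lower. The rule has an edge, since 24 probe sets lay just outside it, with the smaller of their differences between 0.9 and 1 on the log2 scale, and 19 lay just inside, between 1 and 1.1. The filter bears on these counts. Of the 73, 31 passed it only through the 2 knockout arrays, with both w1118 values under 4, and of the 65, 17 passed it only through the 2 w1118 arrays, with both knockout values under 4. All 4 values were at 4 or above for 35 of the 73 and 45 of the 65. A probe set that enters through the strain in which it is high had to differ, so the values of such genes are given below as a description with no p, and counts of moved or called members that include them support nothing about a list. They can be known by both values of one strain lying under 4. When each array was centred on its median, 91 were higher at both times and 56 lower, or 61.9% higher, against 52.9% without centring. The moved probe sets had a median level of 5.53, against 6.44 for all that were kept.

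**Figure D1:**
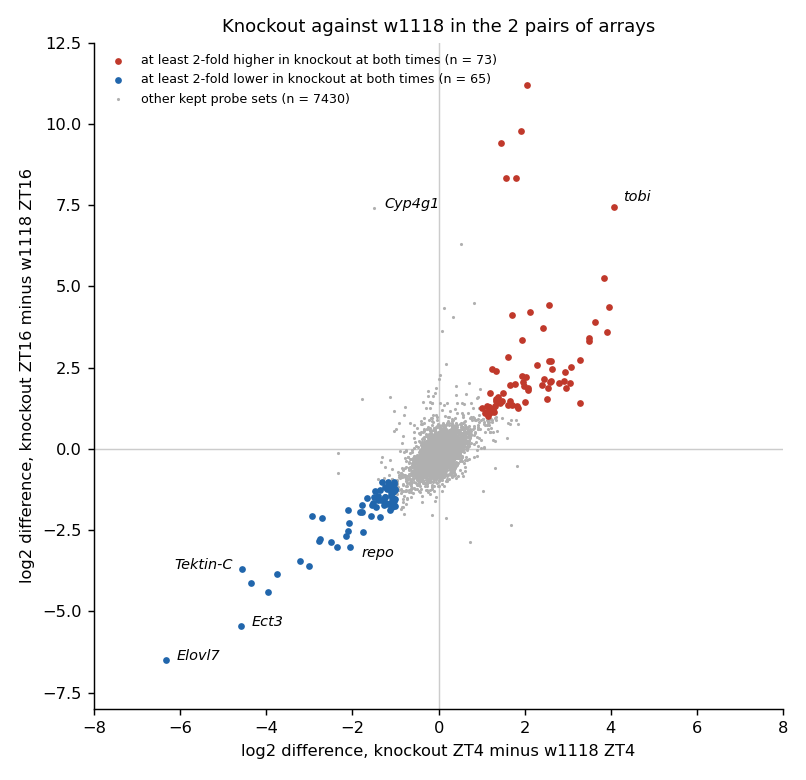
Each point is 1 of the 7568 kept probe sets, with the log2 difference knockout minus w1118 at ZT4 on the horizontal axis and at ZT16 on the vertical axis. The 73 red points were at least 2-fold higher in the knockout at both times and the 65 blue ones at least 2-fold lower, and the points set far up the plot include tobi and Cyp4g1, which were far higher on the knockout ZT16 array than on the knockout ZT4 array.

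The limma model called 122 probe sets higher (1.61%) and 157 lower (2.07%), together 279 (3.69%), while 1292 had an unadjusted p under 0.05. Of the 73 that moved higher 64 were called, and all 65 that moved lower were called. Of the 279, 82 differed less than 2-fold in each pair. The error of the model is the strain-specific share of the difference between the times, so a probe set that is steady over time within each strain is the kind it can call, and the agreement of the 2 pairs is no separate evidence. Of the calls, 31 higher and 30 lower ones had passed the filter through one strain alone. The count and its split depended on single arrays. Without the knockout ZT16 array 118 were called (67 higher, 51 lower), without the w1118 ZT16 array 123 (66 higher, 57 lower) and without the knockout ZT4 array 146 (61 higher, 85 lower). Without both arrays with body markers the split was 116 higher and 75 lower, and with a term for those arrays it was 116 and 88. The median fitted difference was -0.11, and after centring each array the split was 167 higher and 147 lower. More probe sets were called higher than lower under each of these choices except the one without the knockout ZT4 array. In the main fit and under all other settings tried, more were called lower. Quantile normalization gave 123 higher and 130 lower, and the 4 knockout and w1118 arrays alone gave 170 and 218. The direction of the split is thus not settled by these data.

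Of the 73 probe sets that moved higher, 7 stood at least 2-fold above all 6 other arrays on both arrays with body markers, namely those of tobi, whe, CG16826, CG18628, the seminal fluid gene Acp98AB, the lysozyme gene LysP and 1 without a symbol. None of the 65 that moved lower did so. Acp98AB read 4.28 and 12.15 in the knockout, against 2.37 and 2.36 in w1118, and LysP read 4.05 and 6.46 in the knockout, against 2.34 and 2.33 in w1118. Both were thus also above background on the knockout ZT4 array. Neither was called by limma.

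Elovl7, which belongs to the elongases that lengthen fatty acids, differed most among the lower genes. It read 2.55 and 2.53 in the knockout, against 8.87 and 9.03 in w1118. The transcript was near background in the knockout and well expressed on every array of the other 3 strains, where it read at least 8.52. Men, the malic enzyme that supplies reducing power to fatty acid synthesis, rose by 1.05 (SE 0.14, adjusted p = 0.00585 in limma). The other 8 of 10 kept genes of fatty acid synthesis and elongation were not called. FASN1, fatty acid synthase, read 12.68 and 12.48 in the knockout, against 12.59 and 12.69 in w1118.

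Genes of fat storage and of sugar and glucose metabolism were mostly near their w1118 level, apart from a few. Each list is counted with 1 probe set per gene. Over all 6305 kept genes on that basis, 54 moved higher (0.856%) and 47 lower (0.745%), in all 1.6%, and limma called 96 higher (1.52%) and 121 lower (1.92%), in all 3.44%. Of 22 kept genes of lipid storage and breakdown, 0 moved and 2 rose, with a list median of 0.24 at ZT4 and 0.08 at ZT16, against -0.03 and -0.20 for all kept genes. The first was Lsd-1, which coats fat droplets. It read 10.45 and 10.20 in the knockout, against 9.85 and 9.55 in w1118 (0.63, SE 0.12, adjusted p = 0.0280 in limma). The second was yip2, a thiolase of fatty acid breakdown, at 0.67 (SE 0.15, adjusted p = 0.0489 in limma), and both calls were lost without the knockout ZT16 array. CG5966, on no list, also moved higher and was called (1.22, SE 0.13, adjusted p = 0.00179 in limma).

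Pepck1 encodes phosphoenolpyruvate carboxykinase, the entry enzyme of gluconeogenesis. It read 12.48 and 12.43 in the knockout, against 10.49 and 10.50 in w1118, and rose by 1.96 (SE 0.18, adjusted p = 0.000669 in limma). The groups were far apart and steady over time. The glucosidase gene tobi, a target of insulin and adipokinetic hormone signalling, read 6.73 and 9.87 in the knockout, against 2.65 and 2.44 in w1118. The higher of the knockout values comes from the array on which body markers were high. The tim-gal4 control, which lacks the deletion, read 6.57 and 9.26 for tobi, near the knockout at both times. The other 22 of 24 kept carbohydrate genes were not called. Among them fbp, fructose-bisphosphatase, which acts in the same pathway as Pepck1, read 9.68 and 9.36 in the knockout, against 9.12 and 8.76 in w1118.

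Sugar uptake genes were collected after their values had been seen, and 1 of 6 kept members moved. SLC5A11, a solute transporter with a part in the choice of nutritious sugar by hungry flies, read 8.13 and 8.47 in the knockout, against 7.13 and 7.21 in w1118 (1.13, SE 0.17, adjusted p = 0.00818 in limma). The glucose transporter gene Glut1 had 2 probe sets that disagreed. The dimmer read 5.77 and 4.92 in the knockout, against 4.06 and 3.56 in w1118, and was called (1.54, SE 0.21, adjusted p = 0.00560 in limma), while the brighter differed by 0.88 and -0.23. Of the hormones of feeding and metabolism, 0 of 18 were called by limma, with 4 at an unadjusted p under 0.05. The insulin-like peptide gene Ilp5 read 8.17 and 7.43 in the knockout, against 7.49 and 6.96 in w1118 (adjusted p = 0.122 in limma), and Ilp2 read 8.46 and 7.93, against 7.95 and 7.89 in w1118 (adjusted p = 0.382 in limma).

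**Figure D2:**
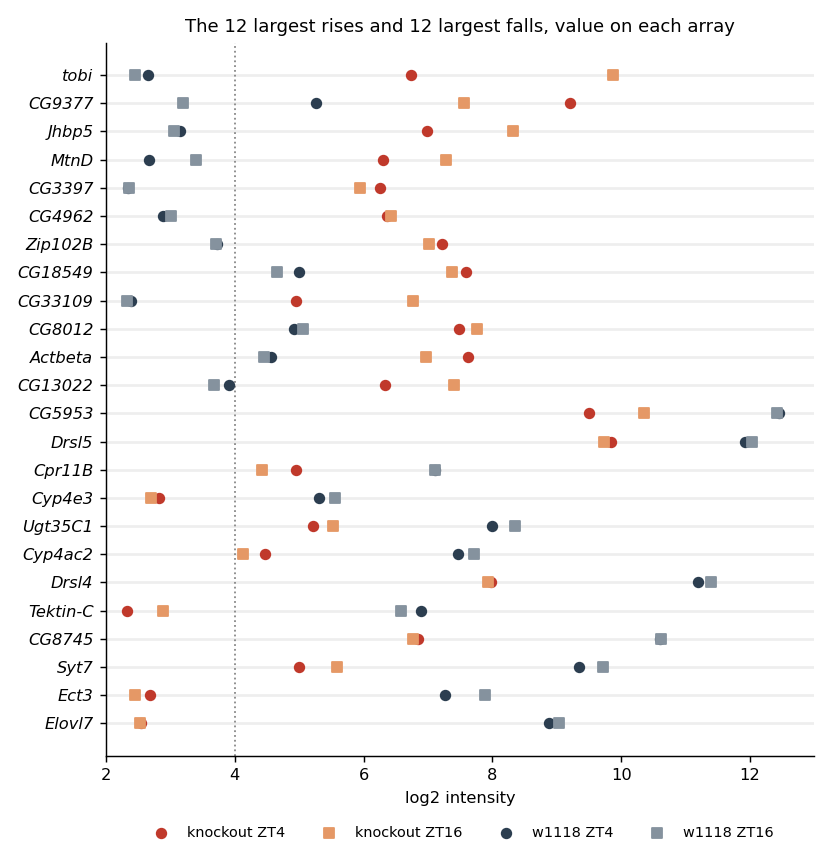
The log2 intensity of the 12 genes with the largest rise and the 12 with the largest fall, ranked by the smaller of the differences at ZT4 and ZT16, on each of the 4 arrays, with knockout in red and orange and w1118 in dark and light grey. The dotted line marks the filter value of 4; Elovl7, Ect3, Tektin-C and Cyp4e3 were under 3 on both knockout arrays, and tobi, CG3397 and CG33109 were under 3 on both w1118 arrays.

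Enzymes that process foreign and hormone-like small molecules went both ways. Of 49 kept cytochrome P450 genes, which encode oxidising enzymes, 1 moved higher and 4 lower, and limma called 1 higher and 5 lower. The list median was 0.04 at ZT4 and -0.07 at ZT16. Cyp4ac2 read 4.46 and 4.12 in the knockout, against 7.46 and 7.72 in w1118, and fell by 3.30 (SE 0.21, adjusted p = 0.0001 in limma). Cyp4e3 read 2.82 and 2.70, against 5.31 and 5.56 in w1118, and Cyp4s3 read 3.42 and 2.92, against 5.19 and 4.85 in w1118. Cyp6t1 fell by 1.12 (SE 0.13, adjusted p = 0.00263 in limma). Cyp4ac3 fell by 0.96 (adjusted p = 0.00900 in limma), while Cyp4d20 rose by 1.21 (SE 0.17, adjusted p = 0.00578 in limma). All but Cyp6t1 of the 6 called genes carry a Cyp4 name, which was noticed after the values were seen. Other kept Cyp4 genes, among them Cyp4ac1, Cyp4d2 and Cyp4e2, were not called. Cyp4e3 and Cyp4s3 passed the filter through the w1118 arrays alone, so the shared name supports nothing about the Cyp4 genes as a group.

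Of 37 kept conjugating enzymes, the glutathione and UDP-glycosyl transferases, 1 moved higher and 2 lower. Ugt35C1 read 5.21 and 5.52 in the knockout, against 7.99 and 8.34 in w1118, and fell by 2.80 (SE 0.18, adjusted p = 0.0001 in limma). GstD3 read 5.81 and 3.99, against 7.37 and 6.04 in w1118, and GstT3 read 6.79 and 6.95, against 5.61 and 5.85 in w1118. Both were called, and neither call stood without the knockout ZT16 array. Most transferases differed little, with list medians of -0.05 and 0.15. Antdh, an antennal dehydrogenase, read 8.97 and 8.50 in the knockout, against 6.43 and 6.64 in w1118 (2.20, SE 0.17, adjusted p = 0.000323 in limma).

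Among 18 kept metal handling genes, 2 moved, both higher in the knockout. MtnD, a metallothionein, one of the small proteins that bind copper and other metals, read 6.30 and 7.29 in the knockout, against 2.67 and 3.40 in w1118. Zip102B, a zinc transporter, read 7.22 and 7.01, against 3.72 and 3.70 in w1118. Both were under 4 on the w1118 arrays. The other 16 were not called, among them the metallothionein gene MtnA, at 12.71 and 12.84 in the knockout, against 12.49 and 12.60 in w1118. The list medians were 0.04 and -0.08.

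A family named for ecdysteroid kinases was grouped after the values were seen. Of its 31 kept members, 3 moved higher and 2 lower, and the same 5 were called. CG10514 read 5.76 and 7.43 in the knockout, against 3.64 and 3.21 in w1118, and CG31288 read 5.36 and 6.74, against 3.75 and 3.93 in w1118. Both were under 4 on the w1118 arrays. In the tim-gal4 control CG10514 read 3.61 and 5.20 and CG31288 read 3.42 and 4.67, higher on the array with body markers. CG32195 rose by 1.13 (adjusted p = 0.00199 in limma). In the other direction, CG11893 read 5.67 and 5.08 in the knockout, against 6.78 and 6.50 in w1118, and CG31436 read 6.16 and 5.89, against 7.24 and 7.69 in w1118. The list medians were 0.02 and 0.08.

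Drosomycin-like genes, relatives of an antifungal peptide, were lower. Drsl4 read 7.98 and 7.93 in the knockout, against 11.19 and 11.40 in w1118, and fell by 3.34 (SE 0.16, adjusted p = 3.3e-05 in limma). Drsl5 read 9.85 and 9.74, against 11.92 and 12.02 in w1118, and fell by 2.18 (SE 0.14, adjusted p = 9.49e-05 in limma). The other 25 of 27 kept humoral immune genes were not called. The list median was -0.11 at ZT4 and -0.27 at ZT16. Both levels of the Drsl genes lay far above background in each strain, so these were partial reductions.

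Of 11 kept genes of blood cells and melanization, 0 moved, 3 rose in limma and 8 were not called. PPO1, a prophenoloxidase, the precursor of the enzyme that starts melanin formation, read 7.14 and 6.59 in the knockout, against 5.29 and 5.83 in w1118 (1.30, SE 0.25, adjusted p = 0.0282 in limma). PPO2 read 8.03 and 7.73, against 6.56 and 6.77 in w1118 (1.21, SE 0.16, adjusted p = 0.00458 in limma). The phagocytic receptor gene eater read 5.74 and 5.57, against 5.14 and 4.85 in w1118 (0.67, SE 0.14, adjusted p = 0.0375 in limma). All 3 differed more than the list median of 0.36 at ZT4 and 0.22 at ZT16.

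Secreted and structural proteins of the body surface and of storage included a few large differences. Cpr11B, a cuticle protein, read 4.96 and 4.42 in the knockout, against 7.11 and 7.11 in w1118, and fell by 2.42 (SE 0.16, adjusted p = 0.000101 in limma). Of the other 17 kept cuticle genes, Cpr49Ae rose by 0.92 (adjusted p = 0.0102 in limma). Cpr97Eb read 3.56 and 3.54 in the knockout, against 4.42 and 4.37 in w1118, and Lcp65Ac read 4.51 and 4.34, against 3.30 and 3.43 in w1118. Lsp2, a storage protein of the hemolymph, read 12.37 and 12.76 in the knockout, against 10.36 and 11.33 in w1118 (1.72, SE 0.29, adjusted p = 0.0150 in limma). That call was lost without the knockout ZT16 array, while the ZT4 difference alone was 2.01. The other 4 of 5 kept yolk and storage genes were not called.

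Among secreted carrier proteins, Jhbp5, of a family named for juvenile hormone binding, read 6.98 and 8.31 in the knockout, against 3.15 and 3.05 in w1118. It was not called, and on the tim-gal4 control arrays it read 3.33 at ZT4 and 7.75 at ZT16, where body markers were high. Of the other 8 kept members of the family, Jhbp7 fell by 0.69 (adjusted p = 0.0474 in limma). Of 19 kept odorant-binding proteins, Obp8a rose by 1.41 (SE 0.14, adjusted p = 0.00102 in limma), while Obp19b fell by 1.22 (SE 0.22, adjusted p = 0.0203 in limma). Obp69a read 3.70 and 2.95 in the knockout, against 4.44 and 4.66 in w1118. Of 10 kept genes of juvenile hormone and ecdysone synthesis and response, 0 moved and 0 were called by limma, with 2 at an unadjusted p under 0.05. Receptors of smell and taste could not be compared, since 0 of the 166 on the array passed the filter.

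**Figure D3:**
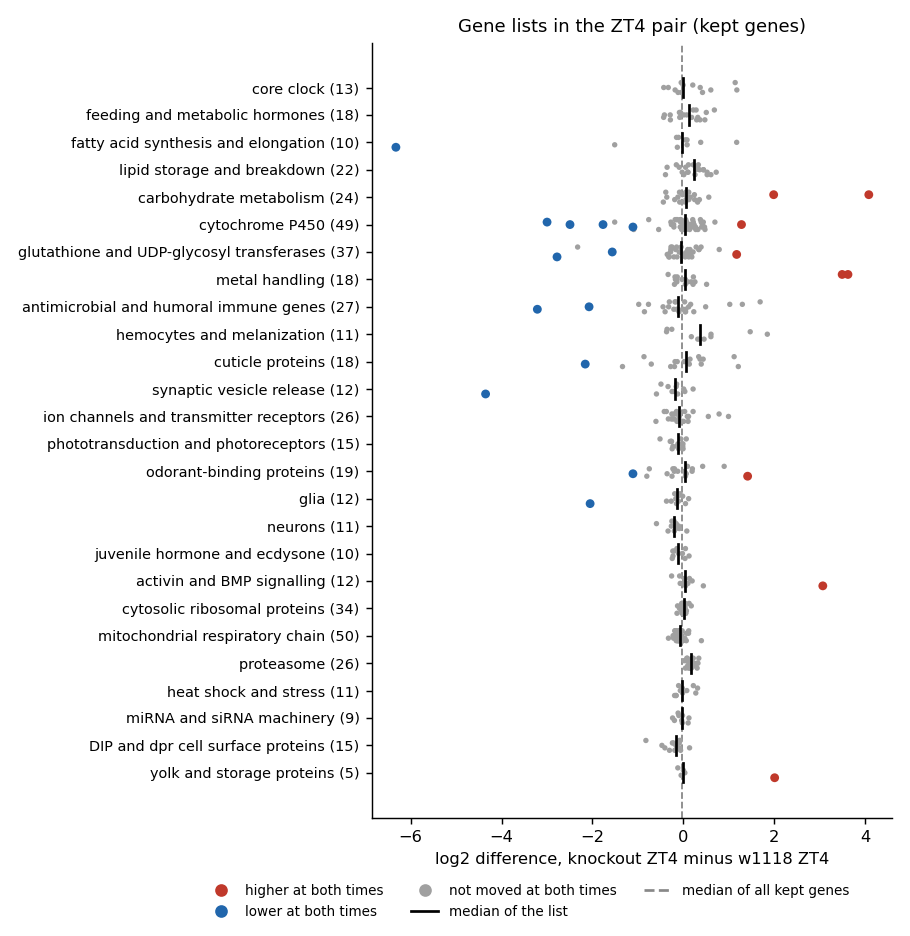
Log2 difference knockout minus w1118 at ZT4 for every kept gene of 26 lists, with the number of kept genes in brackets, the list median as a black bar and the median of all kept genes as a dashed line. Large red and blue points are the genes that moved at both times; in most lists 1 or 2 genes stand apart while the list median lies near 0.

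Among genes of nerve cells and glia, Syt7 showed the largest difference. Syt7 encodes a synaptotagmin, a calcium sensor of vesicle fusion. It read 4.99 and 5.59 in the knockout, against 9.34 and 9.72 in w1118, and fell by 4.24 (SE 0.23, adjusted p = 5.91e-05 in limma). The other 11 of 12 kept genes of synaptic vesicle release were not called. The vesicle protein gene nSyb read 7.16 and 6.93 in the knockout, against 7.75 and 7.83 in w1118 (adjusted p = 0.0763 in limma), and Snap25 differed by -0.16 and -0.48.

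The glial identity factor repo, a homeodomain transcription factor found in nearly all glia of the fly, read 6.70 and 5.51 in the knockout, against 8.75 and 8.55 in w1118. It fell by 2.54 (SE 0.26, adjusted p = 0.00118 in limma). The other 11 of 12 kept glial genes were not called, and the list median was -0.13 at ZT4 and -0.29 at ZT16. Gs2, glutamine synthetase, read 12.30 and 12.12 in the knockout, against 12.40 and 12.42 in w1118. The astrocyte gene alrm read 8.49 and 7.95, against 8.64 and 8.58 in w1118. The neuronal list (11 genes) and the phototransduction list (15 genes) had 0 calls in limma, with 4 and 5 genes at an unadjusted p under 0.05, and medians of -0.20 and -0.12 at ZT4 and -0.48 and -0.50 at ZT16.

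Vesicle coat and membrane traffic genes were grouped after seeing the values. The dynamin gene shi, whose product pinches off endocytic vesicles, has 3 kept probe sets, of which 1 moved. That one read 8.10 and 7.96 in the knockout, against 9.57 and 9.24 in w1118 (-1.38, SE 0.13, adjusted p = 0.000815 in limma), while the others differed by -0.29 and -0.30 and by -0.31 and -0.52. The clathrin assembly gene lap, the fly AP180, was similar, with 1 of 2 probe sets called. It read 5.25 and 4.81 in the knockout, against 6.50 and 6.47 in w1118, and the brighter probe set differed by -0.24 and -0.53. Of the 16 kept clathrin pathway genes, taken by their brightest probe set, 1 fell and 15 were not called, with medians of -0.01 and -0.28. ArfGAP1, which regulates Arf proteins of the Golgi, read 5.84 and 5.28 in the knockout, against 7.12 and 7.01 in w1118 (-1.50, SE 0.21, adjusted p = 0.00716 in limma). The ubiquitin ligase gene Rnf11 fell on both of its probe sets, by 1.22 and 1.03.

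Membrane excitability and rhythm-related genes differed in a few members. The protein of dysc binds the potassium channel encoded by slo and is needed for daily activity rhythms. Its gene read 6.04 and 5.51 in the knockout, against 4.97 and 4.40 in w1118, and rose by 1.09 (SE 0.12, adjusted p = 0.00182 in limma). The channel gene slo read 6.94 and 6.88, against 7.54 and 7.71 in w1118, and fell by 0.71 (SE 0.13, adjusted p = 0.0197 in limma). These genes were paired after their values were seen, and of 3 kept genes of slo regulation 1 was not called. The tim-gal4 control read 7.01 and 6.35 for dysc, and 8.01 and 7.93 for slo. The leak channel gene Ork1 rose by 0.88 (SE 0.17, adjusted p = 0.0268 in limma). The other 24 of 26 kept channel and receptor genes were not called.

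The core clock itself had 0 called and 0 moved of 13 kept genes, with medians of 0.00 and -0.25. The transcriptional repressor tim read 5.82 and 10.82 in the knockout, against 6.0 and 11.17 in w1118. In limma 5 of them had an unadjusted p under 0.05. In the ZT4 pair alone, 2 members were over 2-fold higher, where 2.36% of all genes differed that much either way. Pdp1, an activator of Clk, read 8.92 and 10.09 in the knockout, against 7.77 and 9.47 in w1118 (0.88, SE 0.20, adjusted p = 0.0585 in limma), and the F-box gene Fbxl4 read 7.11 and 7.26, against 5.93 and 6.51 in w1118 (0.96, SE 0.23, adjusted p = 0.0644 in limma).

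Cell surface and adhesion proteins with leucine-rich repeats or immunoglobulin domains were among the genes that moved. The leucine-rich repeat gene 2mit, with a known part in memory, has a probe set that read 5.61 and 5.09 in the knockout, against 2.32 and 2.34 in w1118. Its brighter probe set differed by only 0.71 and 0.44. The gene kek5, with repeats of the same kind, read 5.70 and 5.53 in the knockout, against 4.47 and 4.30 in w1118. In contrast caps, which guides axons to their targets, fell on 1 of 2 probe sets, to 4.81 and 4.07 in the knockout, against 5.85 and 5.33 in w1118. Of 15 kept DIP and dpr genes, a family of paired synaptic recognition proteins, 0 moved and 14 were not called. The gene dpr9 differed by -0.82 and -1.65 and fell by 1.24 (SE 0.21, adjusted p = 0.0149 in limma). The list medians were -0.16 and -0.59.

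Signalling genes that moved included ligands, receptors and kinases. The activin ligand gene Actbeta, which acts through receptor babo, read 7.62 and 6.96 in the knockout, against 4.55 and 4.45 in w1118, and rose by 2.79 (SE 0.20, adjusted p = 0.000171 in limma). The other 11 of 12 kept activin and BMP genes were not called by their brightest probe set, and babo differed by -0.08 and -0.04. A dimmer probe set of the type I BMP receptor gene tkv read 4.02 and 4.15 in the knockout, against 2.66 and 2.71 in w1118, while its bright one differed by 0.05 and -0.18. Cow, a secreted heparan sulfate protein that binds the Wingless ligand, read 8.15 and 7.52 in the knockout, against 6.09 and 5.72 in w1118. The kinase gene wnd, the fly DLK of axon injury signalling, read 7.21 and 6.88, against 5.39 and 5.55 in w1118. Both were called (1.93 and 1.58, adjusted p = 0.000123 and 0.000923 in limma).

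Several further probe sets were near background in w1118 and at 4 or above in the knockout. The methuselah-like receptor gene mthl8 read 4.93 and 4.40 on one probe set and 4.41 and 4.19 on another in the knockout, against 2.32 on each w1118 array for both. The gene for the cyclic nucleotide gated channel relative Cngl read 5.53 and 5.35 in the knockout, against 2.73 and 3.33 in w1118, on 1 of its 2 probe sets. The other was detected in w1118 and ran the other way, at 4.41 and 3.86 in the knockout, against 4.69 and 4.71 in w1118. The junction gene hoka read 4.28 and 5.69, against 2.33 and 2.34 in w1118. The lysosomal reductase gene GILT3 read 5.09 and 4.77, against 2.63 and 2.61 in w1118. All 4 genes entered through the knockout arrays on the probe sets that were higher there.

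Other lower genes, of unrelated roles and picked after their values were seen, are given singly. The hypoxia transcription factor gene sima, the fly HIF alpha, read 5.16 and 4.91 in the knockout, against 6.68 and 6.58 in w1118 (-1.59, SE 0.12, adjusted p = 0.000277 in limma), while its partner tgo differed by -0.26 and -0.50. The amino acid transporter gene path read 8.73 and 8.67, against 9.80 and 10.17 in w1118. Gfat1, the first enzyme of hexosamine synthesis, was lower on its dim probe set by 1.41 and 1.56 on the log2 scale, and its bright probe set differed by -0.20 and -0.43. HipHop, which caps telomeres, read 4.0 and 3.18 in the knockout, against 5.75 and 5.74 in w1118. Ctr9, of the Paf1 complex of transcription elongation, read 6.90 and 6.57, against 7.92 and 7.81 in w1118. The complex I assembly gene sicily read 5.45 and 5.26, against 6.49 and 6.88 in w1118. Each was called lower in limma, Gfat1 on its dim probe set alone. HipHop is under 4 on both knockout arrays, so its call is no support and its p is left out. On the lists written for hypoxia and for the telomere cap, 3 of 4 and 1 of 2 kept genes were not called.

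Single genes best known from cilia, testis, nephrocytes or cell division also moved lower. Each passed the filter through the w1118 arrays alone, so they are given as a description and support no shared theme. Tektin-C, a microtubule protein of cilia and sperm tails, read 2.32 and 2.89 in the knockout, against 6.89 and 6.58 in w1118. It is the 1 of 23 cilia genes on the array that passed the filter. The testis gene tut read 2.42 and 2.41 in the knockout, against 4.24 and 4.35 in w1118, although testis markers were higher on the knockout ZT16 array. The nephrocyte uptake receptor gene Cubn read 3.47 and 3.12, against 4.71 and 4.61 in w1118, and the kinetochore gene Mis12 read 2.52 and 2.90, against 4.02 and 4.38 in w1118.

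Ect3, related to beta-galactosidase, came next in size after Elovl7 among the lower genes. It read 2.68 and 2.44 in the knockout, against 7.26 and 7.89 in w1118. The serine protease gene teq gave opposite results on its probe sets. One read 8.35 and 8.01 in the knockout, against 9.65 and 9.05 in w1118, and the other 5.38 and 4.34, against 2.33 and 2.33 in w1118. The brighter fell in limma, and the dimmer was under 4 in w1118. Of 14 moved genes with several kept probe sets, all probe sets had the same sign at both times in 7. All moved the same way in 2, Rnf11 and mthl8. A single probe set thus need not stand for its gene, and why probe sets of a gene differed was not tested.

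Housekeeping groups held no gene that moved or was called. Cytosolic ribosomal proteins had medians of 0.01 and -0.05 over 34 genes, the respiratory chain -0.08 and 0.09 over 50, and microRNA and siRNA machinery -0.04 and -0.20 over 9, each with 0 called by limma and 0, 1 and 1 genes at an unadjusted p under 0.05. The 26 kept proteasome genes had medians of 0.17 and 0.39 and were all above 0 at both times, with 0 called by limma and 11 at an unadjusted p under 0.05. Heat shock genes had medians of -0.02 and 0.49 over 11 genes, with 0 called by limma and 2 at an unadjusted p under 0.05, and Hsp27 read 4.24 and 5.65 in the knockout, against 3.96 and 4.49 in w1118. The ZT16 values of the last groups come from the array with body markers, whose part in them was not tested.

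A second control strain shows how far control strains themselves differ. Of the 73 probe sets that moved higher in the knockout, the mean of the tim-gal4 control lay within 2-fold of the knockout and not of w1118 for 30, and within 2-fold of w1118 and not of the knockout for 20. It was near both for 4 and near neither for 19. Of the 65 that moved lower, it lay near the knockout alone for 16, near w1118 alone for 27, near both for 10 and near neither for 12. Genes in which the tim-gal4 control was like the knockout included CG4962 (6.37 and 6.42 in knockout heads, 6.61 and 6.54 in those of the tim-gal4 control, against 2.89 and 3.00 in w1118), CG9377, Zip102B, Actbeta, Pepck1 and Tektin-C. The same held for tobi, wnd, kek5, GstT3, Cyp4d20 and Obp8a among the higher genes. Among the lower genes it held for Drsl5, Rnf11, sicily, HipHop, tut, Cubn and the moved probe sets of shi and caps. For all of these a control strain without the deletion was near the knockout. PPO1 and PPO2, which did not move at both times, read 8.48 and 8.42 and 9.25 and 9.07 in the tim-gal4 control, above the knockout, while eater read 5.10 and 5.07.

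A stricter set of 36 probe sets had both knockout arrays at least 2-fold outside all 6 other arrays, 18 higher and 18 lower. Those 6 arrays include the w1118 arrays, so by construction all 36 are among the 138. The same rule found 9 higher and 18 lower for w1118, the strain whose arrays entered the filter in the same way. It found 12 higher and 24 lower for the tim-gal4 control and 46 higher and 70 lower for the overexpression strain. The arrays of those strains did not enter the filter. Standing apart by this rule was thus not particular to the knockout. The lower ones include Elovl7, Ect3, CG8745, Ugt35C1, CG5953, Syt7, Drsl4, Cyp4e3, Cyp4ac2, repo and 1 probe set of lap. The higher ones include CG3397, MtnD, Antdh, tinc, Lsp2, both probe sets of mthl8, and 1 each of 2mit, Cngl, teq and tkv. CG8745 read 6.85 and 6.77 in the knockout, against 10.59 and 10.61 in w1118, and CG3397 read 6.25 and 5.94, against 2.34 and 2.35 in w1118.

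**Figure D4:**
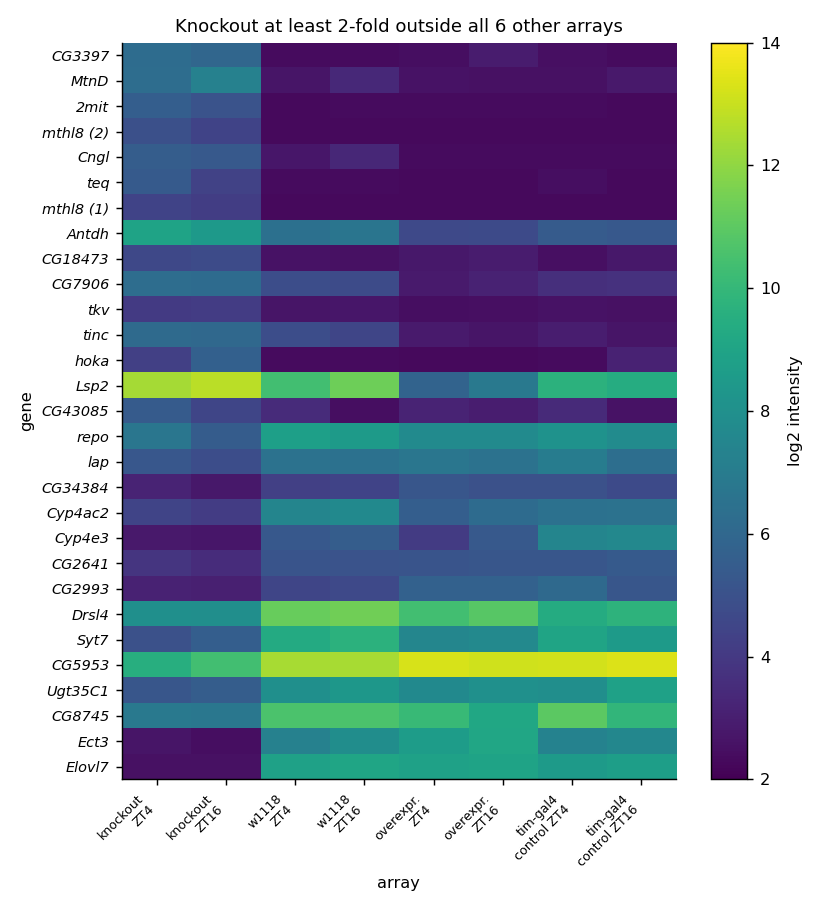
Log2 intensity on all 8 arrays (columns, knockout at the left) for the 29 named probe sets whose 2 knockout values lay at least 2-fold outside every value of the other 3 strains. Rows above repo were higher in the knockout and rows from repo down were lower; (1) and (2) mark the probe sets of mthl8, and only Elovl7 and Ect3 combine a knockout level near background with at least 7 elsewhere.

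The deletion lies on chromosome arm 2L, by the gene order of the RefSeq table for Drosophila genome Release 6. None of the 6 microRNA genes of the cluster has a probe set named for it on the array. The loss of those that the genotype names could thus not be read from these data. DIP-theta, the closest kept gene to mir-959 in that order, read 5.57 and 5.17 in the knockout, against 5.98 and 6.02 in w1118 (-0.63, SE 0.15, adjusted p = 0.0714 in limma). Of the 40 kept genes nearest to mir-959, 20 on each side, 0 moved and 0 were called, with differences between -0.57 and 0.37 at ZT4 and between -0.86 and 0.45 at ZT16.

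The share of genes that moved differed between the arms. On 2L, the arm of the deletion, 11 of 1133 kept genes (0.971%) moved. On 2R 3 of 1301 did (0.231%), on X 17 of 1034 (1.64%), on 3L 30 of 1218 (2.46%), on 3R 36 of 1553 (2.32%) and on the small chromosome 4 it was 4 of 51 (7.84%). The limma calls followed the same order of arms at the ends, with 1.08% of genes on 2R, 2.21% on 2L and 9.8% on 4. Genes on an arm are not independent of each other, and no test was made.

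**Figure D5:**
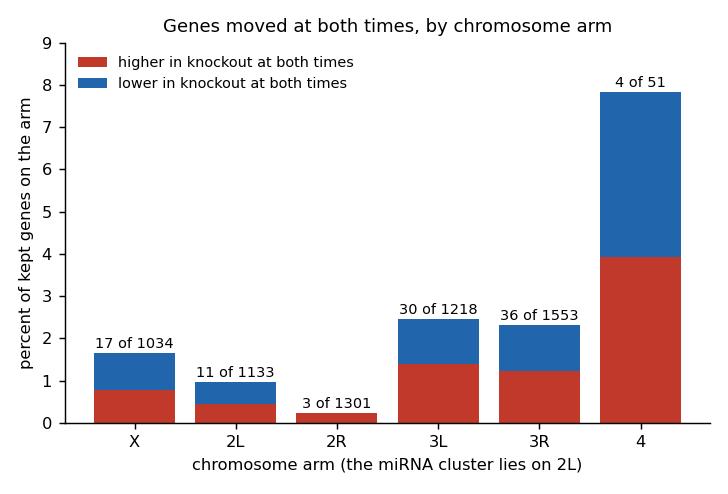
Share of kept genes on each chromosome arm that moved at both times, in percent, stacked as higher in the knockout (red) and lower (blue), with the counts above each bar. The share was highest on chromosome 4 with 4 of 51 genes and lowest on 2R with 3 of 1301, and the arm of the deletion, 2L, had 11 of 1133.

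Some of the moved genes lie side by side. On chromosome 4, Syt7 (lower), Zip102B (higher) and Rnf11 (lower) fall within 3 steps in the order of kept genes. On 3R, CG18547 and CG3397 (both higher) are followed by Ect3 (lower). On 3L, Drsl4 and Drsl5 (both lower) are direct neighbours, and CG8745 (lower) is next to dysc (higher). The ecdysteroid kinase-like genes CG10514, CG11893, CG31288 and CG31436 lie near each other on 3R and went higher, lower, higher and lower in the knockout. Neighbours thus moved in the same direction in some places and in opposite directions in others.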

How the data were processed

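Per the labels, heads were taken from frozen flies, total RNA was extracted with TRIzol, and labelled RNA was hybridized to Affymetrix Drosophila Genome 2.0 arrays. The deposited table holds log2 intensities made with GCRMA, per the submitters' processing notes. This method corrects the background and normalizes arrays jointly, and which version or options were used is not given in the sources used here. Values from 39.8% to 40.8% of probe sets per array were at least 4, and the number of arrays limits the precision.

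Control probe sets (183) were left out, and probe sets reaching log2 4 on 2 or more of the 4 knockout and w1118 arrays were kept. Genes were named from the platform annotation: of the 7568 kept probe sets, 6701 had 1 symbol, 187 several and 680 none, and 6686 matched the RefSeq Release 6 gene table, which gave arms and gene order. Differences between 2 single arrays have no test. Limma 3.58.1 (R 4.3.3; lmFit and eBayes, strain and time as terms, 3 residual degrees of freedom) was fitted on all 8 arrays, and p-values were adjusted over the 7568 probe sets (Benjamini-Hochberg, threshold 0.05). The error is the strain-specific share of the difference between times, and SE values come from this fit. The p-values are two-sided and measure only the spread among these arrays. Tables and figures were made with pandas 2.3.3, numpy 2.4.6 and matplotlib 3.10.9 under Python 3.11.15.

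The genes named by rule are the genotype markers, the 12 largest rises and 12 largest falls among moved genes, and in each list the moved members (at most 6) or else the 1 or 2 with the largest ZT4 difference. For a gene with several probe sets, the brightest stands for it (highest mean over the 4 arrays). Moved genes with a known role and called members of lists are named beyond that rule, after their values were seen. The members and lists were chosen with earlier results of these data known. The alternatives were other filters, folds, normalizations, arrays and moderation.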

Additional observations from a re-analysis of the deposited data

Results flagged for a closer look

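In 6 kept probe sets the knockout differed from w1118 at least 2-fold in opposite directions at the 2 times. With 1 array per strain and time, the difference was not tested. Cyp4g1, a cytochrome P450 of hydrocarbon synthesis in oenocytes, differed by -1.51 at ZT4 and 7.41 at ZT16, with 3.94 and 12.78 in the knockout, against 5.45 and 5.37 in w1118, and it read 12.92 on the tim-gal4 control ZT16 array, which also carried body markers. The muscle actin gene Act79B differed by -1.12 and 1.60, where 15 of 15 muscle genes reached 4 on the knockout ZT16 array and 12 of 15 on the w1118 ZT16 array. The antimicrobial peptide genes DptB and Mtk went the other way, with 1.69 and -2.35 for DptB and 1.02 and -1.29 for Mtk. CG13947 differed by -1.77 and 1.53, and a probe set with no single symbol by -1.03 and 1.16. No group had the 4 arrays needed to look for a single array that stands apart.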

How the results depend on the processing

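The 198 probe sets at least 2-fold apart at ZT4 became 120 with a filter of log2 6 and 54 with a 4-fold threshold. At ZT16 the count of 293 became 1024 with no filter, 147 with the filter of 6 and 73 with the 4-fold threshold, and the 138 that moved at both times became 84 and 43 under the last 2 settings. Under the other settings these counts stayed within 149 to 225, 230 to 322 and 101 to 148. The 279 limma calls became 30 with no filter, of which 19 are shared, ranged from 118 to 288 when 1 array was left out, and lay between 191 and 388 otherwise. The count without the probe sets high on the arrays with body markers (310), and that after centring each array (314), were chosen after seeing the data, and the count without those 2 arrays was 191. All 279 kept their direction in each of these fits that tested them. Of 39 named genes called, 36 lost the call with no filter (the cause was not tested), 10 without the knockout ZT4 array, 10 without the knockout ZT16 array and 12 without the w1118 ZT16 array. All 34 named genes that moved kept their sign in every setting. The fitted difference changed sign for brp (0.10 with a term for the 2 arrays with body markers) and, when 1 array was left out, for brp (from -0.41 without the w1118 ZT16 array to 0.072 without the w1118 ZT4 array), ATPsynC (-0.35 to 0.055, without the same arrays) and RpL7-like (from -0.055 without the knockout ZT4 array to 0.14 without the knockout ZT16 array), none of them called, and the cause was not tested. No paired analysis was possible because the labels give no replicate numbers, beyond the pairing by time that the fit already holds as a term. Values near 2.32 carry no quantity, and with 1 array per condition the spread between flies of a strain is unknown.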
